A study of Mus musculus with 12 samples.

Results

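The transcripts of the first-order feeding peptides of the arcuate nucleus (ARC) were followed across mice. These are *Agrp* and *Npy*, whose peptides promote feeding, and *Pomc* and *Cartpt*, whose peptides reduce it, and they were taken by gene symbol from a table of 38283 mouse genes, in which each of the 4 symbols occurred once. The ARC had been cut from 14 μm brain sections by laser capture, and its RNA was amplified across the transcriptome and sequenced. There were 5 WT and 7 Homo mice, each giving 1 library. All mice were freely fed C57BL/6 males aged 8 weeks. Homo mice carried the R299Q allele of *Prkag2* in both copies, WT mice carried none, and both came from crosses between heterozygotes. *Prkag2* encodes the γ2 subunit of AMP-activated protein kinase (AMPK), the energy sensor of the cell. The allele is a whole-body knock-in, so it is not confined to the neurons that make these peptides. Expression is given in FPKM, in which the fragments on a gene are divided by the length of its transcript and by the fragments mapped in that library.

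AGRP neurons of the ARC make AGRP together with NPY. AGRP blocks melanocortin receptors on downstream neurons, and NPY stimulates feeding through its own receptors. A second population of ARC neurons makes pro-opiomelanocortin (POMC), which is cut into α-melanocyte-stimulating hormone, the agonist of the same melanocortin receptors. CART peptides, encoded by *Cartpt*, are made in many POMC neurons of rodents and in other hypothalamic neurons. In tissue RNA, fewer cells of a type and less RNA per cell cannot be told apart.

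*Agrp* (ENSMUSG00000005705, chr8:105566698-105637393 of GRCm38, minus strand), *Npy* (ENSMUSG00000029819, chr6:49822710-49829507, plus strand), *Pomc* (ENSMUSG00000020660, chr12:3954951-3960642, plus strand) and *Cartpt* (ENSMUSG00000021647, chr13:99898489-99901091, minus strand) are all protein-coding genes. The annotated span of *Agrp* is long because of transcripts that start far upstream, and there it shares exonic sequence with *Ctcf* on the other strand and with a non-coding gene, *Gm5914*. *Ctcf* lay between 9.03 and 61.3 FPKM, and reads of the shared stretch cannot be assigned between the genes without strand. The other 3 genes overlap no annotated gene.

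Sequence before the transcription start was available from RefSeq (GRCm38) for 3 of the 4 genes, *Npy*, *Pomc* and *Cartpt*. *Pomc* and *Cartpt* are shown because their transcripts moved together between mice. For *Pomc* the 250 bases before the start are printed (chr12:3954695-3954944, plus strand), with 2 E-boxes (CANNTG) and a TATA box (TATAAA) in capitals. For *Cartpt* 30 bases around a cyclic AMP response element (CRE, TGACGTCA, in capitals) are printed (chr13:99900777-99900806, read on the minus strand). This stretch lies before the RefSeq start but inside the first exon of a longer annotated transcript.
Pomc: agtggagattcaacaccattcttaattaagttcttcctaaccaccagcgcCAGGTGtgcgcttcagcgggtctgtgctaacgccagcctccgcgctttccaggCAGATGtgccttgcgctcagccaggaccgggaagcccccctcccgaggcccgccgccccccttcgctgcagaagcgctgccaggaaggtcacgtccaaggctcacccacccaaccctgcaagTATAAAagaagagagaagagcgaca
Cartpt: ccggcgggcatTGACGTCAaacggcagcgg
Both strands of the 250 bases were searched for 6 motifs. The CRE was found in *Cartpt*, at -112 to -105 from the start, and it was present in 1.55% of the 32851 promoters of the table. Its half-site TGACG, which overlaps the CRE, was found only there among the 3 genes and was present in 17.8% of all promoters. E-boxes were found in *Pomc* and *Cartpt* and in 66.2% of all promoters. The TATA box of *Pomc* lay at -25 to -20, and 12.4% of all promoters held these letters. A STAT site (TTCNNNGAA, in 7.02% of all promoters) and a FoxO site (TGTTTAC, in 3.17%) were found in none of the 3, and the *Npy* window held none of the 6 motifs. These matches describe letters and say nothing of whether a factor binds.

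The libraries fell into 2 sets by the number of genes above 0, a division that no label names. The titles of Homo 6 and Homo 7 do word the genotype differently from those of Homo 1 to Homo 5, which parts Homo in the same way. The WT titles are worded alike. WT 1, WT 2 and Homo 1 to Homo 5 had between 15742 and 16467 genes above 0, and WT 3, WT 4, WT 5, Homo 6 and Homo 7 had between 18141 and 18635. The first 7 are called the lower-detection set and the other 5 the higher-detection set. Depth was known only roughly, from the steps between low values, and these steps were clearer in the higher-detection set. By these steps 1 fragment on 1 kb was worth 0.157 to 0.336 FPKM in the lower-detection set and 0.0839 to 0.119 in the other. A larger step means fewer fragments. Only 21.2% to 41.4% of low values lay on a step in the lower-detection set, so its depth is uncertain, against 42.8% to 62.0%. In the higher-detection set the smallest value of any of the 4 peptides rested on an estimated 580 fragments. *Prkag2* lay between 7.73 and 24.0 FPKM, with a mean of 14.6 ± 5.43 in the 5 WT and 14.8 ± 4.88 in the 7 Homo mice (SD). A point mutation need not alter the level of its transcript, so this value does not check the genotype labels.

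The 4 transcripts were among the most abundant of the ARC. By mean FPKM over the 12 libraries, *Npy* ranked 58th, *Pomc* 82nd, *Cartpt* 102nd and *Agrp* 185th of all genes in the table. Their means were 1281 ± 402 FPKM for *Npy*, 787 ± 334 for *Pomc*, 672 ± 275 for *Cartpt* and 385 ± 144 for *Agrp* (SD, n = 12). *Npy* was the highest of the 4 in 10 of the 12 libraries, and *Pomc* was the highest in WT 2 and WT 5. *Agrp* was the lowest in 10 libraries, and *Cartpt* was the lowest in WT 3 and Homo 2. The steps of this order were tested within libraries. As the order was read from the same libraries, these p-values are no independent test of it. *Npy* exceeded *Pomc* by a geometric mean of 1.73-fold (exact sign-flip permutation over 12 libraries, two-sided, p = 0.00293, adjusted over 3 steps p = 0.00879). The geometric mean ratio of *Pomc* to *Cartpt* was 1.16, with *Pomc* the higher in 9 of 12 libraries (exact permutation p = 0.0122, adjusted p = 0.0122). That of *Cartpt* to *Agrp* was 1.69, with *Cartpt* the higher in 10 of 12 (exact permutation p = 0.00586, adjusted p = 0.00879). On the log2 scale the mean step from *Npy* to *Pomc*, 0.79, was larger than its SD of 0.64, while those from *Pomc* to *Cartpt*, 0.21, and from *Cartpt* to *Agrp*, 0.75, were slightly smaller than their SD of 0.25 and 0.77. FPKM allows for transcript length but not for unequal amplification of different transcripts.

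The question of the genotype comparison was whether the peptides of feeding are expressed differently in R299Q γ2 mice. All 4 transcripts had a higher mean in Homo, and none passed an adjusted p of 0.05 (limma on log2(FPKM + 1) over the 14017 genes averaging 1 FPKM or more, Benjamini-Hochberg adjustment), a threshold passed by 0.00713% of all genes tested. *Npy* and *Agrp* had an unadjusted p under 0.05, which 3.05% of all genes reached in the same direction. The median log2 difference of the 4 was 0.60, beside -0.0062 over all genes tested. None of the 4 was without overlap between genotypes, as were 0.221% of all genes. The scale of log2(FPKM + 1) hardly alters differences at these levels.

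Of the orexigenic transcripts, *Npy* stood at 1576, 1146, 514, 980.0 and 856 FPKM across WT 1 to WT 5 and between 1118 and 1795 FPKM in Homo, with a median of 1452. All 7 Homo libraries lay above the WT median, and 3 lay above every WT library. The log2 difference was 0.60 (limma standard error 0.24 and adjusted p = 0.887), with an exact permutation p = 0.0354 over the 792 ways of choosing 5 libraries. *Agrp* stood at 499, 347, 181, 272 and 208 FPKM across WT and between 256 and 597 FPKM in Homo, with a median of 474. Homo 6 and Homo 7, at 256 and 276 FPKM, lay below the other 5 Homo libraries and below WT 1 and WT 2. The log2 difference of *Agrp* was also 0.60 (limma standard error 0.28 and adjusted p = 0.899), with an exact permutation p = 0.0909. Every library of the higher-detection set had less *Agrp* than every other library, whatever the genotype. With genotype in the model the log2 difference between the sets was -0.94 for *Agrp* (standard error 0.16, limma adjusted p = 0.0293, a threshold passed by 0.178% of genes) and -0.60 for *Npy* (standard error 0.21, limma adjusted p = 0.417). In the same model the genotype difference was 0.30 for *Agrp* and 0.41 for *Npy*, each with a limma adjusted p of 0.978.

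**Figure D1:**
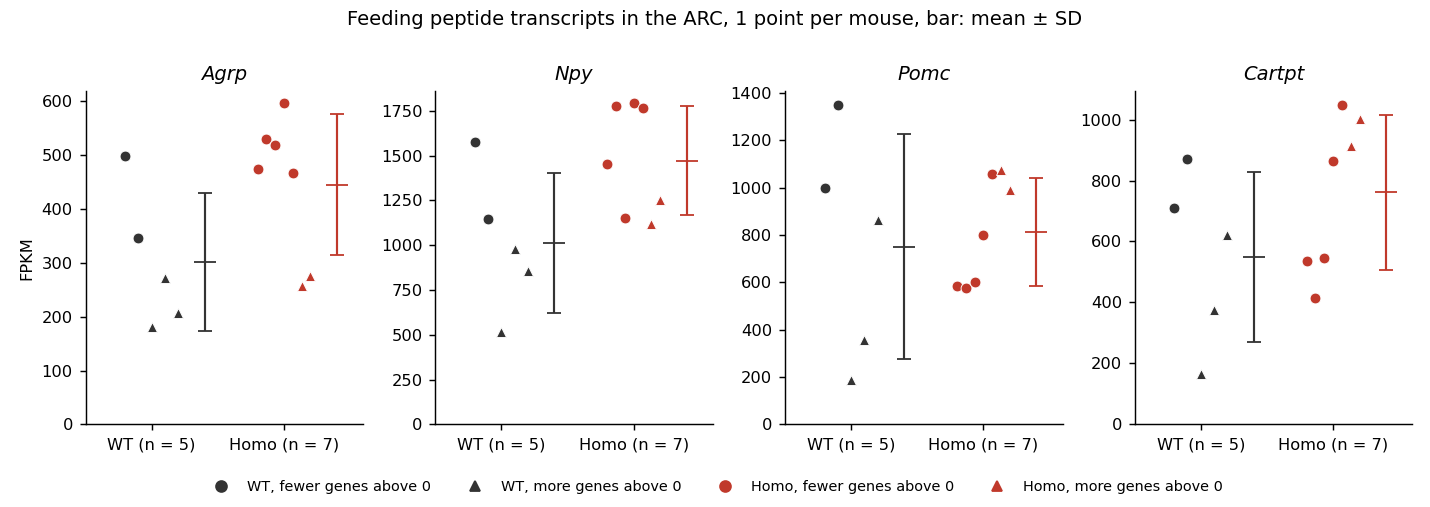
FPKM of *Agrp*, *Npy*, *Pomc* and *Cartpt* in each of 5 WT and 7 Homo mice, with the mean ± SD beside the points. Circles mark the lower-detection set (fewer genes above 0) and triangles the higher-detection set (more genes above 0). The genotypes overlap in all 4 panels, and the triangles lie below the circles for *Agrp*.

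Of the anorexigenic transcripts, *Cartpt* stood at 710.3, 869, 165, 376 and 623 FPKM across WT 1 to WT 5 and between 416 and 1049 FPKM in Homo, with a median of 865. WT 3 was lowest by a wide margin, 4 of 7 Homo libraries lay above the WT median and 3 lay above every WT library. The mean of *Cartpt* was 549 ± 279 FPKM over the 5 WT and 761 ± 255 FPKM over the 7 Homo mice (SD), higher by 38.7%. Its log2 difference was 0.60, as large as those of *Agrp* and *Npy*, with a larger standard error of 0.37 (limma adjusted p = 0.915, and p = 0.193 by exact permutation). It was 0.23 without WT 3 and 0.82 without WT 2. *Pomc* stood at 998, 1350.2, 189.7, 356 and 862 FPKM across WT and between 578 and 1077 FPKM in Homo, with a median of 800.4. The WT values of *Pomc* spanned the whole range of Homo, and no Homo library lay above every WT library. Its log2 difference was 0.38 (limma standard error 0.41 and adjusted p = 0.923, and p = 0.467 by exact permutation) and was -0.031 without WT 3.

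*Pomc* and *Cartpt* also varied most between mice. The highest *Pomc* value was 7.12-fold the lowest, and that of *Cartpt* was 6.34-fold, against 3.49-fold for *Npy* and 3.29-fold for *Agrp*. The SD of log2(FPKM + 1) over the 12 libraries was 0.79 for *Pomc*, 0.76 for *Cartpt*, 0.59 for *Agrp* and 0.52 for *Npy*. Among the 680 genes averaging 100 FPKM or more the median SD was 0.43, and 126 genes had a larger SD than *Pomc*. Within WT the SD was 1.17 for *Pomc* and 0.96 for *Cartpt*, and within Homo it was 0.41 and 0.53. The difference in spread between the genotypes was not tested, and WT 3 was the lowest library for all 4 peptides.

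Ratios within a library do not depend on how that library was scaled. The 2 peptides of AGRP neurons kept a narrow ratio. *Npy* was 3.16, 3.31, 2.83, 3.60 and 4.13 times *Agrp* in WT 1 to WT 5 and between 2.21 and 4.54 times *Agrp* in Homo, with a median of 3.35. The genotypes overlapped throughout, and the log2 ratio was 1.76 in both (SD 0.20 in WT, n = 5, and 0.36 in Homo, n = 7; exact permutation p = 0.981, adjusted over 7 comparisons p = 0.994). The ratio of *Pomc* to *Cartpt* was 1.40, 1.55, 1.15, 0.948 and 1.39 in WT and between 0.925 and 1.39 in Homo, with a median of 1.09. The genotypes overlapped, with Homo 4 below every WT library and Homo 2 above the WT median, and the log2 ratio was 0.34 ± 0.28 in WT and 0.12 ± 0.19 in Homo. The difference was -0.22 on the log2 scale, smaller in size than the SD in WT and slightly larger than that in Homo (exact permutation p = 0.136, adjusted over 7 comparisons p = 0.955).

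Ratios of an orexigenic to an anorexigenic transcript were much wider. For short they are called ratios between populations, and *Agrp* with *Npy* and *Pomc* with *Cartpt* are called pairs within a population. The names are loose, as *Cartpt* is also made outside POMC neurons. The ratio of *Agrp* to *Pomc* lay between 0.241 and 0.956 in WT and between 0.238 and 0.915 in Homo, and that of *Npy* to *Pomc* between 0.849 and 2.75 in WT and between 1.04 and 3.07 in Homo. The ratio of *Agrp* to *Cartpt* lay between 0.333 and 1.10 in WT and between 0.275 and 1.27 in Homo, and that of *Npy* to *Cartpt* between 1.32 and 3.11 in WT and between 1.22 and 4.26 in Homo. In each case the Homo range covered most of the WT range. The log2 differences between genotypes were 0.21, 0.22, -0.0075 and -0.0030 in this order, each smaller than the SD within either genotype (exact permutation p = 0.693, 0.575, 0.989 and 0.994, each with an adjusted p of 0.994 over 7 comparisons). Over the 12 libraries the SD of the log2 ratio was 0.25 for *Pomc* over *Cartpt* and 0.29 for *Npy* over *Agrp*, against 0.58 to 0.82 for the 4 ratios between populations. As a description, 3.73% of all 230860 pairs among these 680 abundant genes had a smaller SD of their ratio than *Pomc* and *Cartpt*, 7.50% a smaller SD than *Agrp* and *Npy*, and 49.0% to 64.8% a smaller SD than the pairs between populations.

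The balance of the orexigenic and anorexigenic transcripts was taken as the mean log2 FPKM of *Agrp* and *Npy* less that of *Pomc* and *Cartpt*. Over the 5 WT mice it averaged -0.044 ± 0.73 and over the 7 Homo mice 0.061 ± 0.70 (SD), a difference of 0.10 that is small beside the SD. As a fold, the balance lay between 0.575 and 1.72 in WT, with a median of 1.05, and between 0.540 and 1.98 in Homo, with a median of 1.24. *Agrp* and *Npy* together made up 54.9%, 40.2%, 66.2%, 63.1% and 41.7% of the FPKM of the 4 peptides in WT 1 to WT 5. In Homo the share lay between 40.8% and 69.9%, with a median of 59.0%. The share exceeded 50% in 3 of 5 WT and 5 of 7 Homo libraries, and its means were 53.2% ± 11.9 and 55.3% ± 10.6 (SD). The median of the summed FPKM of *Agrp* and *Npy* was 1252 for WT and 1925 for Homo mice, and that of *Pomc* and *Cartpt* was 1485 and 1666. Both sums thus had a higher median in Homo.

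**Figure D2:**
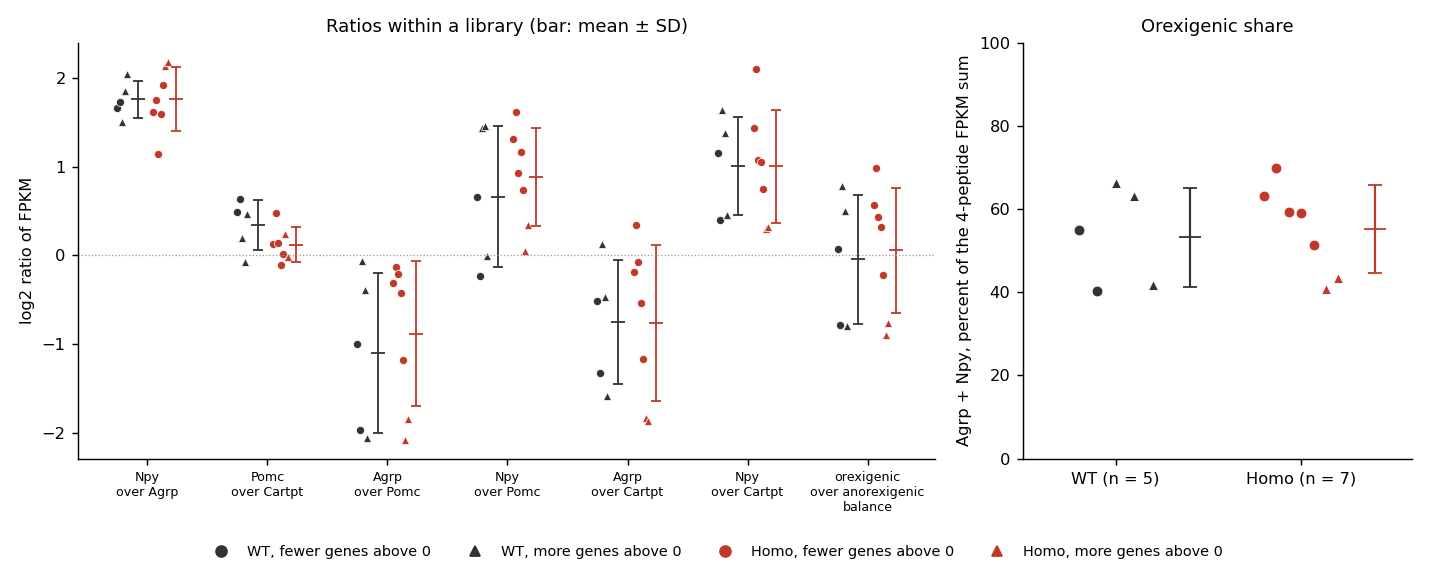
Left, log2 ratios of FPKM between the peptide transcripts within each library, and the balance of the orexigenic over the anorexigenic pair, for 5 WT and 7 Homo mice with mean ± SD. Right, the share of *Agrp* and *Npy* in the summed FPKM of the 4 peptides, from 40.2% to 66.2% in WT and from 40.8% to 69.9% in Homo. *Npy* over *Agrp* and *Pomc* over *Cartpt* spread least.

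Co-variation between mice showed the same division. It is not separate evidence, as the spread of a log ratio follows from the spread and the correlation of its genes. *Pomc* and *Cartpt* rose and fell together, with Pearson's r = 0.95 and Spearman's rho = 0.89 over the 12 libraries (permutation test, 100000 resamples, p = 5e-05 and p = 0.0003; adjusted over 6 pairs p = 0.0003 and p = 0.0009). Without WT 3 and WT 4, the libraries farthest from the median of *Pomc*, r was 0.83 (permutation p = 0.00428). Within the 7 Homo libraries r was 0.94 (exact permutation p = 0.00298) and within the lower-detection set it was 0.83 (exact permutation p = 0.0313). *Agrp* and *Npy* had r = 0.87 and rho = 0.89 (permutation p = 0.00024 and p = 0.00029; adjusted over 6 pairs p = 0.00072 and p = 0.0009). Without WT 3 and WT 5, the libraries farthest from the median of *Agrp*, r was 0.77 (permutation p = 0.0157). Within the Homo libraries r was 0.67 and within the lower-detection set 0.60, neither larger than the scatter allows (exact permutation p = 0.130 and p = 0.153). With the mean of each library set removed, r was 0.76 for *Agrp* and *Npy* and 0.95 for *Pomc* and *Cartpt*. With genotype and library set both removed, these were 0.64 and 0.96. The 5 libraries of the higher-detection set are too few for a correlation. Both genes of a pair share the library and its total at every point.

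Between the populations the values of r were lower, though the difference from the pairs within a population was not tested, and they rested on WT 3. *Npy* had r = 0.66 with *Cartpt* and r = 0.60 with *Pomc* (permutation p = 0.0252 and p = 0.0418; adjusted over 6 pairs p = 0.0504 and p = 0.0627), while rho was 0.34 and 0.15 (permutation p = 0.286 and p = 0.632). Without WT 3 alone these r fell to 0.20 and 0.11. *Agrp* had r = 0.37 with *Cartpt* and r = 0.33 with *Pomc* (permutation p = 0.242 and p = 0.302, adjusted over 6 pairs p = 0.290 and p = 0.302), and without WT 3 they were -0.067 and -0.11. Without WT 3 and the next library farthest from the median, the 4 values of r lay between -0.14 and 0.12. Within Homo, *Agrp* and *Pomc* had r = -0.66 (exact permutation p = 0.154, n = 7). Homo 1 to Homo 4 combined 474 to 597 FPKM of *Agrp* with 578 to 800.4 FPKM of *Pomc*, and Homo 6 and Homo 7 combined 256 and 276 FPKM of *Agrp* with 1077 and 989 FPKM of *Pomc*. Homo 5 combined 466.3 FPKM of *Agrp*, the lowest of the Homo libraries in the lower-detection set, with 1057 FPKM of *Pomc*. Of all pairs among the 680 abundant genes, 0.0814% had a higher r than *Pomc* and *Cartpt*, 1.29% a higher r than *Agrp* and *Npy*, and 12.3% to 38.5% a higher r than the pairs between populations, where the median r of all pairs was 0.20.

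**Figure D3:**
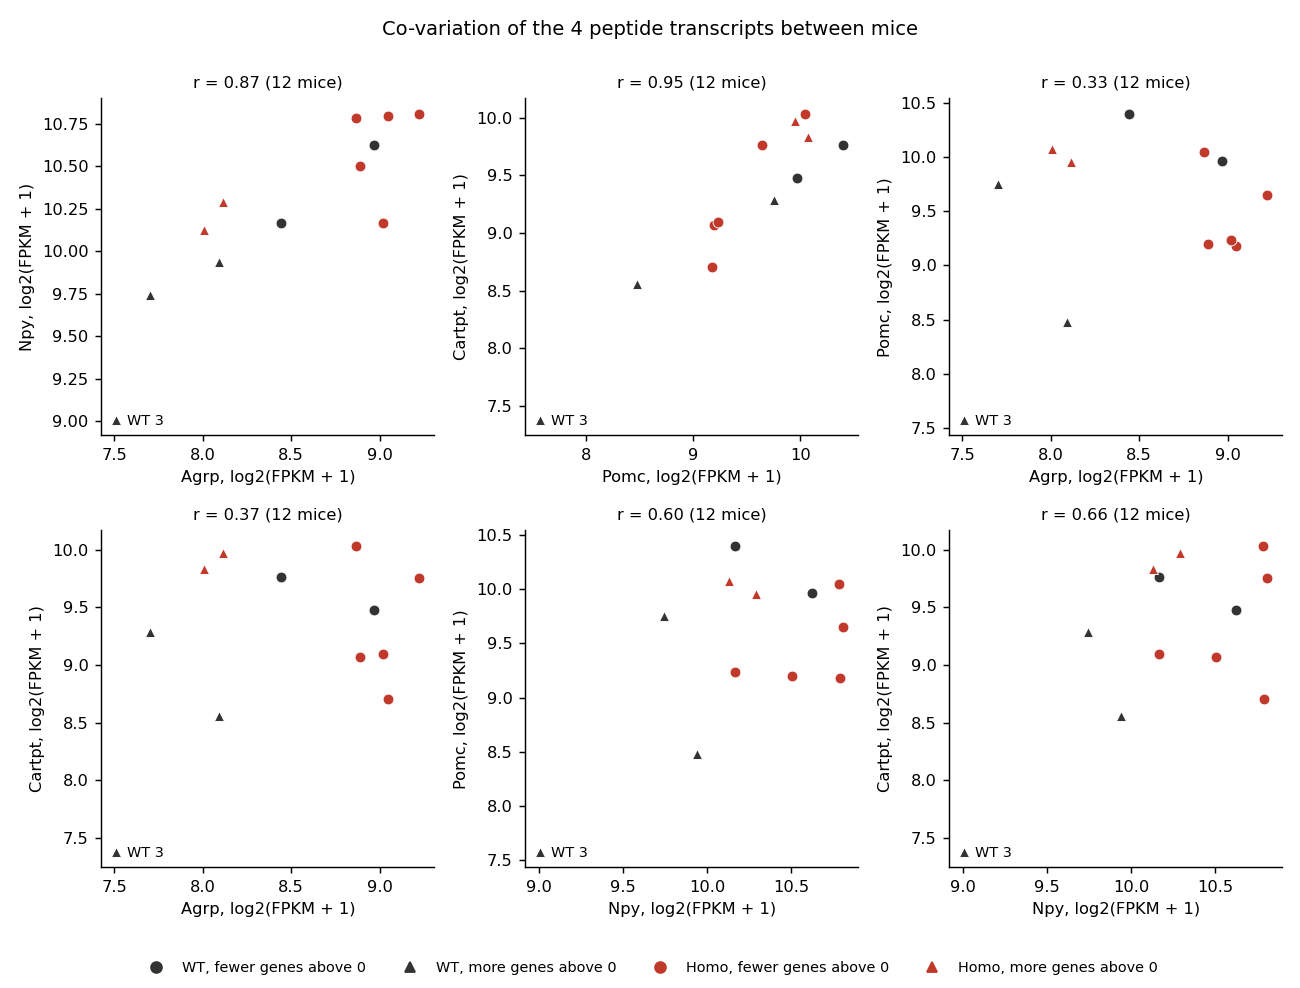
Each pair of the 4 peptide transcripts on the log2(FPKM + 1) scale, 1 point per mouse, with WT in black, Homo in red and triangles for the higher-detection set. The points of *Agrp* with *Npy* (r = 0.87) and *Pomc* with *Cartpt* (r = 0.95) lie along a line. In the other 4 panels WT 3 lies apart at the lower left, and the remaining points show little relation.

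The differences between genotypes had opposite signs in the library sets for the anorexigenic pair and for the ratios of *Agrp* or *Npy* to it, though no gap between the sets passed an adjusted p of 0.05. In the lower-detection set the log2 difference of *Pomc* was -0.72 and that of *Cartpt* -0.29, against 1.41 and 1.50 in the higher-detection set. For *Npy* it was 0.22 and 0.65, and for *Agrp* 0.31 and 0.29, so these kept their sign. The ratio of *Npy* to *Agrp* also changed sign, with log2 differences of -0.089 and 0.36. Its geometric mean over both genotypes was 3.09 in the lower-detection set and 3.84 in the higher-detection set. *Cartpt* was at 710.3 and 869 FPKM in the WT libraries of the lower-detection set, within the 416 to 1049 FPKM of the 5 Homo libraries of that set. In the other set the 165, 376 and 623 FPKM of WT lay below the 913 and 1003 FPKM of Homo. The gap between the sets had an exact permutation p = 0.0762 for *Cartpt* and p = 0.0381 for *Pomc*, rearranging genotype within the sets in all 210 ways. Adjusted over the 11 levels and ratios so tested, p was 0.120 and 0.105.

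The orexigenic share also differed in direction between the sets. In the lower-detection set it was 54.9% and 40.2% in WT and between 51.4% and 69.9% in Homo. In the higher-detection set the values were 66.2%, 63.1% and 41.7% in WT against 40.8% and 43.4% in Homo. The log2 balance was higher in Homo by 0.77 in the first set and was lower by 0.99 in the second, with a difference of -0.033 when the set was in the model. No set holds more than 3 WT libraries, and genotype counts were unequal between the sets. What set the libraries apart was not tested.

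**Figure D4:**
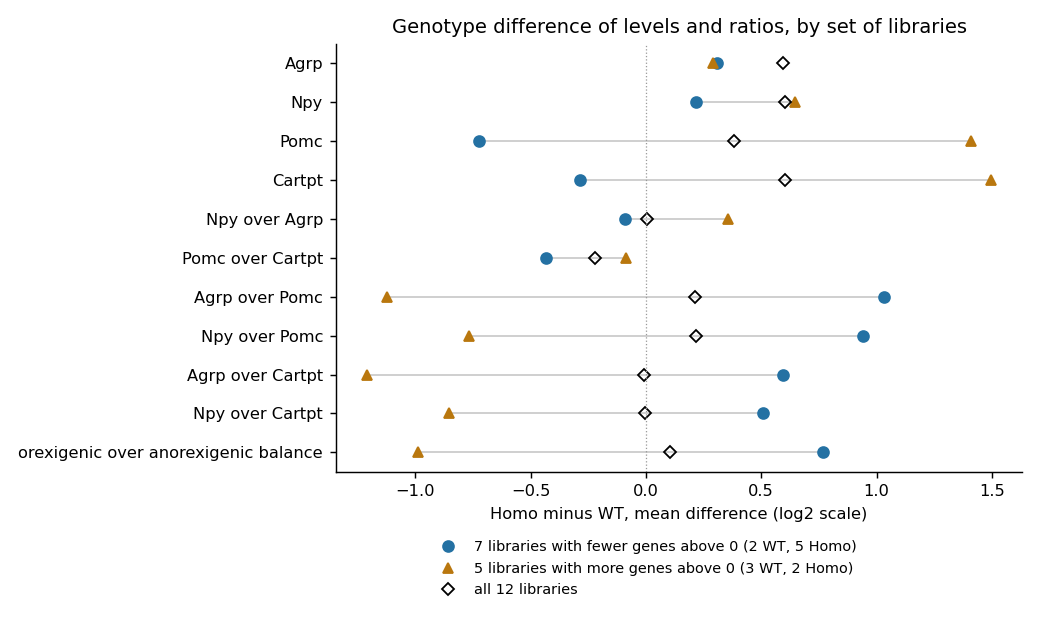
Mean difference of Homo from WT on the log2 scale for each peptide (log2(FPKM + 1)), each ratio and the balance (log2 FPKM ratio), in the lower-detection set of 7 libraries, the higher-detection set of 5 and all 12. *Agrp* and *Npy* lie to the right of 0 in both sets. *Pomc*, *Cartpt*, the ratios between populations and, by less, *Npy* over *Agrp* lie on opposite sides.

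The genes closest to each peptide in their pattern over the 12 libraries were ranked by Pearson's r among the 5873 other genes averaging 10 FPKM or more, as a description. *Cartpt* was the closest of all to *Pomc*, and *Pomc* was the third closest to *Cartpt*. *Npy* was 32nd in the order of *Agrp*, and *Agrp* was 70th in that of *Npy*. The genes named next are the closest once the peptides themselves are left out of the order. *Pomc* was followed most closely by *Rab3b* (r = 0.93), a small GTPase of regulated secretion, and *Ppp2r2c* (r = 0.93), a regulatory subunit of a protein phosphatase. Next to *Pomc* came *Ghrh* (r = 0.92), the growth hormone releasing hormone of other ARC neurons. *Cartpt* was followed by *Pebp1* (r = 0.96), *Hpcal1* (r = 0.95), a neuronal calcium sensor, and *Rpl15* (r = 0.93), a ribosomal protein. With the mean of each library set removed these 6 values of r lay between 0.92 and 0.95.

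*Npy* was followed by *Rps25-ps1* (r = 0.95), *Gm4604* (r = 0.95) and *Ndufa11* (r = 0.95), the last a gene of respiratory complex I. *Agrp* was followed by *Mrpl23-ps1* (r = 0.93), *Gm9846* (r = 0.93) and *Slc39a1* (r = 0.92), a zinc transporter. Names ending in -ps1 are of pseudogenes, whose values can hold reads of the parent gene and are uncertain. With the set mean removed, r with *Agrp* fell to 0.50 for *Mrpl23-ps1* and 0.38 for *Slc39a1* and was 0.84 for *Gm9846*. For 2 of the 3, then, the likeness to *Agrp* was much smaller once the difference between the library sets was taken out.

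Genes around the peptides were taken from lists. No gene of the 5 pathway lists passed an adjusted p of 0.05, and 1 passed an unadjusted p of 0.05, against 5.55% of all genes in either direction. Of 9 receptors and modulators tested, 3 had a higher and 6 a lower mean in Homo, with a median log2 difference of -0.060. *Oprm1*, the μ opioid receptor that binds the endorphin cut from POMC, was at 22.0 ± 9.40 FPKM in WT and 29.4 ± 9.36 in Homo (exact permutation p = 0.191). *Mrap2*, an accessory protein of melanocortin receptors, was at 15.8 ± 3.49 and 20.4 ± 5.61 (exact permutation p = 0.167), and *Atrn*, a cofactor of agouti signalling, at 14.0 ± 3.20 and 10.9 ± 6.08 (exact permutation p = 0.162). Melanocortin receptor transcripts themselves were low. *Mc3r* was at 6.58 ± 1.72 and 6.04 ± 1.62 FPKM, and *Mc4r*, at 0.320 ± 0.460 and 0.360 ± 0.291 FPKM, was not tested.

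Of 8 enzymes of peptide processing and breakdown, 5 had a higher and 3 a lower mean in Homo (median log2 difference 0.22). *Ctsl*, a protease, was at 40.8 ± 9.53 FPKM in WT and 52.1 ± 7.93 in Homo, with all 7 Homo libraries above the WT median (limma p = 0.0671, adjusted p = 0.899; exact permutation p = 0.0480). *Cpe*, which trims the ends of cleaved peptides, was at 265 ± 64.1 and 353 ± 104 FPKM (exact permutation p = 0.117), and *Prcp*, which inactivates α-melanocyte-stimulating hormone, at 2.03 ± 0.816 and 2.87 ± 0.735 FPKM (exact permutation p = 0.0922). The convertases that cut POMC differed by less than their SD. *Pcsk1* was at 14.8 ± 3.55 and 14.3 ± 2.82 FPKM, and *Pcsk2* at 15.0 ± 3.42 and 15.0 ± 4.20 FPKM.

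Of 11 transcription factors tested, 5 had a higher and 6 a lower mean in Homo (median log2 difference -0.033). *Bsx*, the homeobox factor of AGRP neurons that acts on *Agrp* and *Npy*, was at 26.8 ± 14.6 FPKM in WT and 20.9 ± 10.5 in Homo, with 1 of 7 Homo libraries above the WT median (log2 difference -0.32, limma standard error 0.31 and adjusted p = 0.923, and p = 0.383 by exact permutation). *Tbx3*, a factor of both populations, was at 87.4 ± 55.9 and 46.1 ± 15.8 FPKM (exact permutation p = 0.140), with log2 differences of -1.79 and 0.16 in the lower- and higher-detection sets. *Nkx2-1* was at 14.0 ± 4.60 and 10.9 ± 4.90 FPKM (exact permutation p = 0.261) and *Creb1*, which binds the CRE, at 4.52 ± 0.840 and 3.69 ± 0.875 FPKM (exact permutation p = 0.141). Of 10 genes of hormone and transmitter input, 4 had a higher and 6 a lower mean in Homo (median log2 difference -0.15). The ghrelin receptor *Ghsr* was at 4.55 ± 0.952 and 3.56 ± 1.81 FPKM (exact permutation p = 0.251), the leptin receptor *Lepr* at 6.64 ± 6.96 and 3.85 ± 2.73 (exact permutation p = 0.383) and *Irs2*, an adaptor of insulin signalling, at 12.6 ± 5.65 and 9.68 ± 3.64 (exact permutation p = 0.333).

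Of 10 genes that AGRP neurons share, 6 had a higher and 4 a lower mean in Homo (median log2 difference 0.042). *Gad1*, which makes the inhibitory transmitter GABA and is also expressed in many other neurons, was at 83.9 ± 8.93 FPKM in WT and 109 ± 22.1 in Homo, with all 7 Homo libraries above the WT median. Its log2 difference was 0.35 (standard error 0.16, limma p = 0.0431, adjusted p = 0.899; exact permutation p = 0.0101). *Slc32a1*, the vesicular transporter of GABA, was at 35.5 ± 12.5 and 42.9 ± 10.7 FPKM (exact permutation p = 0.314).

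Markers of other cells were read in the same libraries. The 10 markers of neurons in general summed to between 1002 and 1618 FPKM in WT and between 1195 and 1723 in Homo, 8 of the 10 had a higher mean in Homo and none was at 0. The 12 peptides and enzymes of other ARC neurons summed to between 1090 and 3072 FPKM in WT and between 1808 and 2596 in Homo, with 9 of the 12 higher in Homo. *Slc6a3* (means 3.58 and 7.35 FPKM in WT and Homo) and *Nts* (1.33 and 3.49 FPKM) had an unadjusted p under 0.05. Of all genes 3.05% reached this in the same direction, and the limma adjusted p was 0.793 for *Slc6a3* and 0.783 for *Nts*. In WT 3, the lowest library for all 4 peptides, both neuronal lists were also at their lowest. Pituitary hormones were present in some libraries, *Gh* at 61.5, 64.5 and 54.5 FPKM in WT 3, WT 5 and Homo 7 and *Cga* at 50.2 FPKM in WT 3. The 10 pituitary markers summed to between 1.87 and 120.2 FPKM in WT and between 1.86 and 60.5 in Homo. *Pomc*, also a pituitary transcript, was at its lowest in WT 3, where this sum was highest. In WT 5 and Homo 7, which also held *Gh*, *Pomc* was at 862 and 989 FPKM. *Pomc* was highest in WT 2, at 1350 FPKM, where the pituitary factors *Tbx19* and *Pou1f1* were also at their highest, 10.1 and 4.31 FPKM. The part of these cells in the peptide values was not tested further.

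The mean of the general neuron markers followed *Pomc* (r = 0.80, rho = 0.66) and *Cartpt* (r = 0.81, rho = 0.59) over the 12 libraries (permutation p = 0.00252 and p = 0.00176 for r, adjusted over 44 relations of markers to peptides p = 0.0277 and p = 0.0258). Its r was 0.051 with *Agrp* and 0.41 with *Npy* (permutation p = 0.875 and p = 0.183). Whether these correlations differ was not tested. The other ARC neuron list had r = 0.90 with *Pomc*, 0.91 with *Cartpt*, 0.79 with *Npy* and 0.64 with *Agrp* (permutation p = 0.00036, p = 0.00015, p = 0.00446 and p = 0.0184; adjusted p = 0.00792, p = 0.0066, p = 0.0392 and p = 0.135). Without WT 3 and WT 4, which lay farthest from the median of that list, these 4 values were 0.54, 0.68, 0.38 and 0.32, and without WT 3 and Homo 3 the general list had r = 0.62 with *Pomc* and 0.66 with *Cartpt*. No rank correlation of the 44 had an adjusted p under 0.05. With the mean of the general neuron markers subtracted, *Pomc* and *Cartpt* had r = 0.92 and *Agrp* and *Npy* r = 0.89. Subtracting it puts the same term into both genes of a pair, and the part of neuron content in these r was not tested. After the same subtraction the genotype differences were 0.51 for *Agrp*, 0.51 for *Npy*, 0.30 for *Pomc* and 0.52 for *Cartpt*.

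**Figure D5:**
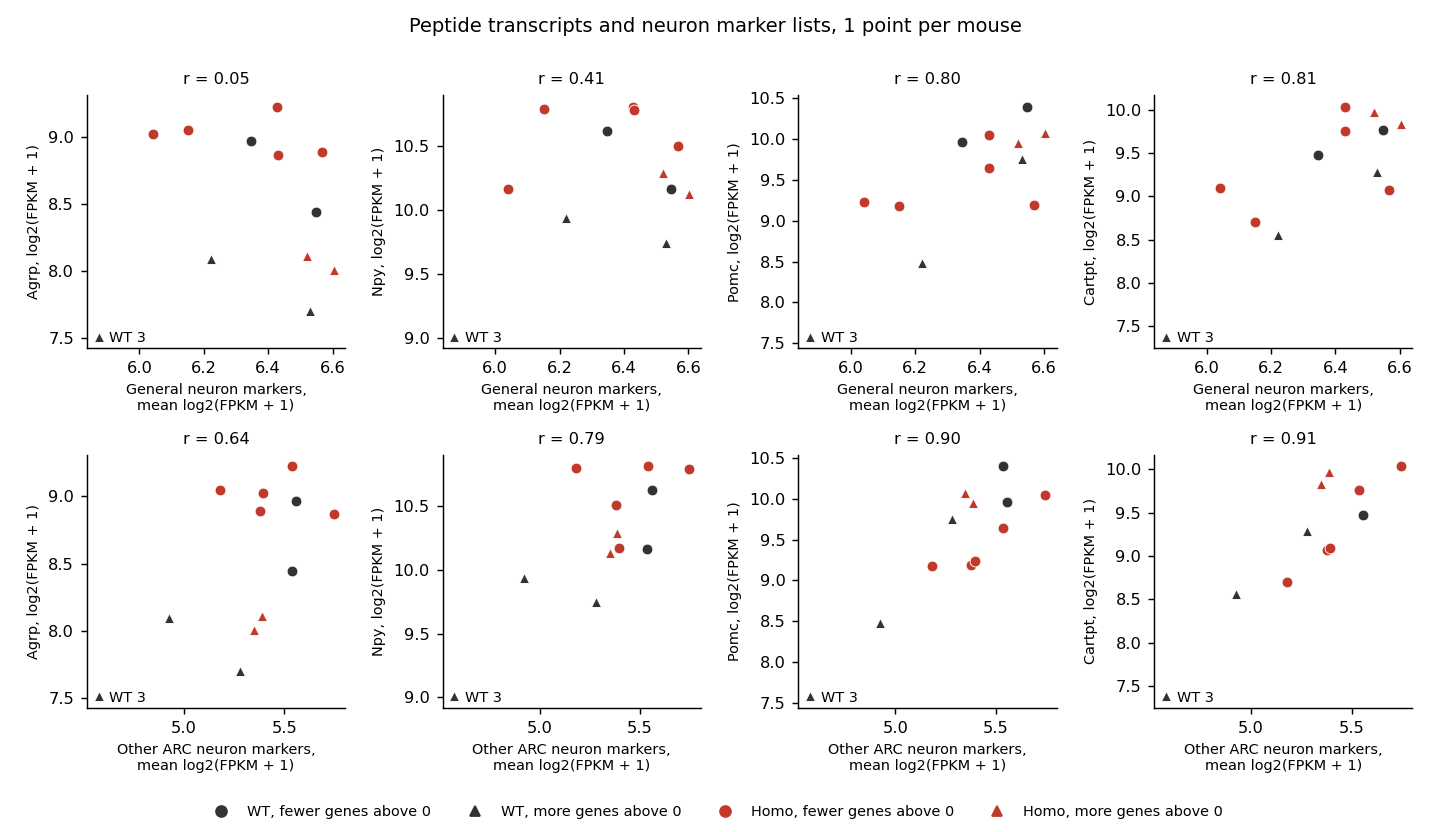
Log2(FPKM + 1) of each peptide against the mean of 10 general neuron markers (top) and of 12 peptides and enzymes of other ARC neurons (bottom), 1 point per mouse. *Pomc* and *Cartpt* rise with both lists, WT 3 lies at the lower left of every panel, and *Agrp* shows no relation to the general neuron markers (r = 0.05).

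Markers of neighbouring regions were low or uneven. Of the ventromedial nucleus, *Nr5a1* reached 0.315 FPKM and *Fezf1* 0.647 FPKM at most, and the 3 markers summed to at most 2.21 FPKM in WT and 4.14 in Homo. The 6 markers of the lateral hypothalamus and paraventricular nucleus summed to between 5.67 and 1027 FPKM in WT and between 9.06 and 573 in Homo, nearly all from *Oxt* and *Avp*. Their mean had r between -0.12 and 0.18 with the 4 peptides. Of glial and other markers, all 6 of microglia, all 6 of oligodendrocytes and all 6 of endothelial cells had a higher mean in Homo, as did 5 of 6 of astrocytes, 1 of 3 tested of ependymal cells and 2 of 5 of tanycytes. Microglial markers summed to between 28.0 and 44.8 FPKM in WT and between 41.7 and 71.8 in Homo, with *C1qa* and *Aif1* higher at an unadjusted p under 0.05. Of the tanycyte markers *Crym* was lower at that threshold, at 2.83 ± 2.18 FPKM in WT and 0.735 ± 0.642 in Homo, with 0 of 7 Homo libraries above the WT median (log2 difference -0.98, exact permutation p = 0.0379). Over all genes 5.55% reached that threshold in either direction. Endothelial markers summed to 24.6 to 37.8 FPKM and 33.4 to 56.6 FPKM, oligodendrocyte markers to 88.8 to 550.0 and 153 to 403 FPKM, astrocyte markers to 134 to 228 and 162 to 257 FPKM, ependymal markers to 13.1 to 46.9 and 12.9 to 40.3 FPKM and tanycyte markers to 22.0 to 40.6 and 13.2 to 38.0 FPKM. None of these lists had a correlation with a peptide at an adjusted p under 0.05. Their part in the genotype differences was not tested.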

How the data were processed

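The authors laser-captured the ARC from 14 μm sections, isolated RNA with a kit for small samples, amplified it and sequenced it on an Illumina HiSeq 2500. The deposited table holds FPKM values per gene and mouse. The submitters' processing notes name TopHat2 2.0.8, Cufflinks 2.2.1 and GRCm38. The study's methods name general parametric and rank tests for all its data. Which of them was applied to these values, and any scaling beyond FPKM, are not given in the sources used here. For Homo 4 and Homo 5 the spelling of the column differs from the rest by a letter, and the title gave the match. Tests suited to counts do not apply to FPKM, and depth is known only from the steps between low values. FPKM cannot separate overlapping genes or near-identical copies.

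From the deposited FPKM, log2(FPKM + 1) was fitted with limma 3.58.1 in R 4.3.3 (1 term for genotype, with variances trended and robust) over 14017 genes with a mean of at least 1, with Benjamini-Hochberg adjustment. The scripts were tested on simulated data. Ratios used log2 FPKM with no pseudocount. Exact two-sided permutation tests ran over the 792 ways of choosing 5 of 12 libraries, or 210 rearrangements within library sets, and correlations over 100000 resamples or all orders for 7 libraries (NumPy 2.4.6). The p-values rest on the spread between single mice. Named genes were the 4 peptides, *Prkag2*, *Bsx*, the 3 genes with the smallest unadjusted p in each pathway list and the 3 genes closest to each peptide, and other genes were named after their values were seen. The peptides and lists were chosen with earlier results of these data known. Gene positions are from GENCODE mouse release M21. Alternatives covered the pseudocount, filters on low values, quantile and upper-quartile normalization, array weights, plain variances, the library set, a replicate block, neuron markers as a reference, Homo 1 to 5 only and each library left out.

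Replicate numbers are shared by WT 1 to 5 and Homo 1 to 5, but no label ties a number to a litter or day.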

Additional observations from a re-analysis of the deposited data

Results flagged for a closer look

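The genotype difference of *Pomc* differed between the library sets, at 1.41 on the log2 scale in the 5 libraries of the higher-detection set and -0.72 in the 7 of the lower-detection set, a gap of 2.13. Rearranging genotype within the sets gave an exact permutation p = 0.0381, which was 0.105 after adjustment over the 11 levels and ratios so tested, and the interaction term of limma gave p = 0.00676 before and 0.876 after adjustment over all genes. The ratio of *Npy* to *Pomc* was drawn to attention by the same comparison, with log2 differences of -0.77 and 0.94 and a gap of -1.71 (exact permutation p = 0.0476, adjusted over 11 p = 0.105). The ratios of *Agrp* to *Pomc*, *Agrp* to *Cartpt* and *Npy* to *Cartpt* had gaps of -2.15, -1.80 and -1.36 with exact permutation p between 0.0524 and 0.0571. The sets were defined from these libraries and are not groups of the study, and the cause of the gap was not tested. Of the 22 groups examined for a library standing apart from its genotype, over 4 levels, 6 ratios and the balance in each genotype, 0 held one, where chance gives about 1 in 20.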

How the results depend on the processing

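The genotype differences of *Agrp* and *Npy* kept their sign, and no peptide passed an adjusted p of 0.05, under any alternative run, but with the library set in the model *Agrp* fell from 0.60 to 0.30 and *Npy* from 0.60 to 0.41. In the lower-detection set, a restriction chosen after seeing the data, *Pomc* turned to -0.72 and *Cartpt* to -0.29. Ratios near 0 changed sign readily: *Npy* over *Agrp* was -0.022 with quantile normalization, -0.15 with Homo 1 to 5 only and -0.089 in the lower-detection set. *Agrp* over *Cartpt* was 0.43 and *Npy* over *Cartpt* 0.28 with Homo 1 to 5 only, and 0.60 and 0.51 in the lower-detection set. With Homo 1 to 5 only, *Agrp* over *Pomc* moved from 0.21 to 0.64, *Npy* over *Pomc* from 0.22 to 0.49 and the balance from 0.10 to 0.46. In the higher-detection set *Agrp* over *Pomc* was -1.12, *Npy* over *Pomc* -0.77 and the balance -0.99, and within library sets the balance was -0.033. The count of genes with an adjusted p under 0.05, 1 over all libraries, was 4 with Homo 1 to 5 only, 6 in the lower-detection set and 19 in the higher-detection set. With quantile normalization r was 0.69 for *Agrp* with *Npy* (permutation test, adjusted over 6 pairs p = 0.038) and 0.91 for *Pomc* with *Cartpt*. Under that setting *Npy* had r = 0.42 with *Pomc* and 0.52 with *Cartpt*, and *Agrp* had r = 0.042 and 0.11. In Homo alone r was 0.67 for *Agrp* with *Npy*, -0.66 for *Agrp* with *Pomc*, -0.51 for *Agrp* with *Cartpt*, -0.15 for *Npy* with *Pomc* and -0.094 for *Npy* with *Cartpt*. In the lower-detection set r was 0.60 for *Agrp* with *Npy* and 0.83 for *Pomc* with *Cartpt*, neither past an adjusted p of 0.05 with 7 libraries, and -0.64, -0.30 and -0.13 for *Agrp* with *Pomc*, *Agrp* with *Cartpt* and *Npy* with *Pomc*. Centred on library set means, *Npy* with *Cartpt* had r = 0.69 and passed. It also passed with WT 2, WT 5, Homo 2, Homo 6 or Homo 7 left out, and *Npy* with *Pomc* passed with WT 2, WT 5 or Homo 2 left out. Neither pair passed with any other library left out, WT 3 among them. The causes of these changes were not tested.

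Leaving out each library in turn gave log2 differences of 0.44 to 0.80 for *Agrp*, 0.38 to 0.78 for *Npy*, -0.031 to 0.67 for *Pomc* and 0.23 to 0.82 for *Cartpt*, with 1 to 3 genes at an adjusted p under 0.05 and 607 to 890 at an unadjusted p under 0.05. The ratios ranged from -0.066 to 0.11 for *Npy* over *Agrp*, -0.33 to -0.15 for *Pomc* over *Cartpt*, -0.028 to 0.47 for *Agrp* over *Pomc*, -0.0073 to 0.42 for *Npy* over *Pomc*, -0.22 to 0.21 for *Agrp* over *Cartpt*, -0.18 to 0.15 for *Npy* over *Cartpt* and -0.083 to 0.31 for the balance. The values of r ranged from 0.84 to 0.92 for *Agrp* with *Npy*, 0.88 to 0.96 for *Pomc* with *Cartpt*, -0.11 to 0.42 for *Agrp* with *Pomc*, -0.067 to 0.47 for *Agrp* with *Cartpt*, 0.11 to 0.68 for *Npy* with *Pomc* and 0.20 to 0.79 for *Npy* with *Cartpt*.

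The replicate numbers did not pair the libraries: same-numbered libraries had deviations correlated at -0.054 to 0.029, and 0 of 5 pairs were closest to their own number. With the replicate block, which keeps Homo 1 to 5, the log2 differences were 0.87 for *Agrp*, 0.72 for *Npy*, 0.23 for *Pomc* and 0.44 for *Cartpt*, the ratios were -0.15 for *Npy* over *Agrp*, 0.43 for *Agrp* over *Cartpt* and 0.28 for *Npy* over *Cartpt*, and 2 genes had an adjusted p under 0.05.

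FPKM give no counts, so precision comes from the spread between 5 and 7 mice. Standard errors of the genotype difference were largest for *Pomc* and *Cartpt* among the 4 peptides, at 0.41 and 0.37, and no p here shows that the genotypes were alike.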
